A study of Mus musculus with 10 samples.

Results

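The NADPH oxidase subunit genes described here are Nox4, Cybb, Cyba, Ncf1 and Ncf4, 5 of the 54532 genes in the deposited table, and they were chosen by gene symbol. All 5 passed the filter on low counts. They were measured by bulk RNA-seq in obstructed kidneys of wild-type male C57BL/6 mice, whose left ureter was ligated at 8 weeks of age (unilateral ureteral obstruction, UUO) and which were sacrificed on day 14. From each of 5 mice given PBS and 5 mice given DMM there was a single library. DMM is dimethyl malonate, an ester whose malonate inhibits succinate dehydrogenase, and it was injected into the peritoneum at 40 mg/kg every other day. Every kidney was obstructed, so the comparison is between treatments of injured kidneys and holds no uninjured kidney. The total count was between 16457495 and 18078777 per PBS library and between 15722527 and 19475833 per DMM library.

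NADPH oxidases move electrons from NADPH across a membrane to oxygen and so make superoxide or hydrogen peroxide. In the phagocyte enzyme the catalytic subunit NOX2, encoded by Cybb, is held in the membrane by its partner encoded by Cyba, and becomes active when cytosolic subunits, among them the products of Ncf1 and Ncf4, and a Rac GTPase join it. NOX4 also pairs with the product of Cyba but needs no cytosolic subunit, makes mostly hydrogen peroxide, and is abundant in kidney tubules.

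Some libraries stood apart. The group means that the authors deposited can be written as sums of weighted counts, and the weight was 0 for PBS replicate 3 and for DMM replicate 1, for which the sources used here give no reason. In DMM replicate 1 all 5 members were inside the range of the PBS libraries. PBS replicate 3 had the highest Nox4 and the lowest Cybb, Ncf1 and Ncf4 of the PBS libraries. Leaving out these libraries therefore moves the groups apart for Nox4, Cybb, Ncf1 and Ncf4, though not for Cyba, and it decides every call of a member below. Differences between the groups are given over all 10 libraries, as the study's methods describe the comparison, and then over the 8 libraries without them.

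DMM replicate 4 stood apart in another way. It had counts on 20029 genes, against 22898 in the next lowest library, and 5.62% of its counts were on genes of the mitochondrial genome. Its mean correlation with the other DMM libraries was 0.916, the lowest of the 10. Its log2 CPM (the read count normalized to library size by the TMM method) deviated from the mean of the 10 libraries by a median of 0.52 in the lowest of 5 equal bins of GC content and by -0.65 in the highest. By length of the longest transcript, the median deviation of this library was -0.60 in the shortest of 5 equal bins and 0.57 in the longest. The members lie on both sides of these gradients. By length, Cyba and Ncf4 are in the shortest bin, Ncf1 is in the middle bin, and Nox4 and Cybb are in the next to longest. The longest transcripts of Nox4 and Cybb have a GC content of 37.9% and 42.4%, in the lowest bin, while those of Cyba and Ncf4 have 59.3% and 55.7%, in the highest, and that of Ncf1 has 53.4%. Values without this library are therefore given as well for the members and for most lists. For the lists of other genes, leaving out single libraries was chosen after seeing the data.

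**Figure D1:**
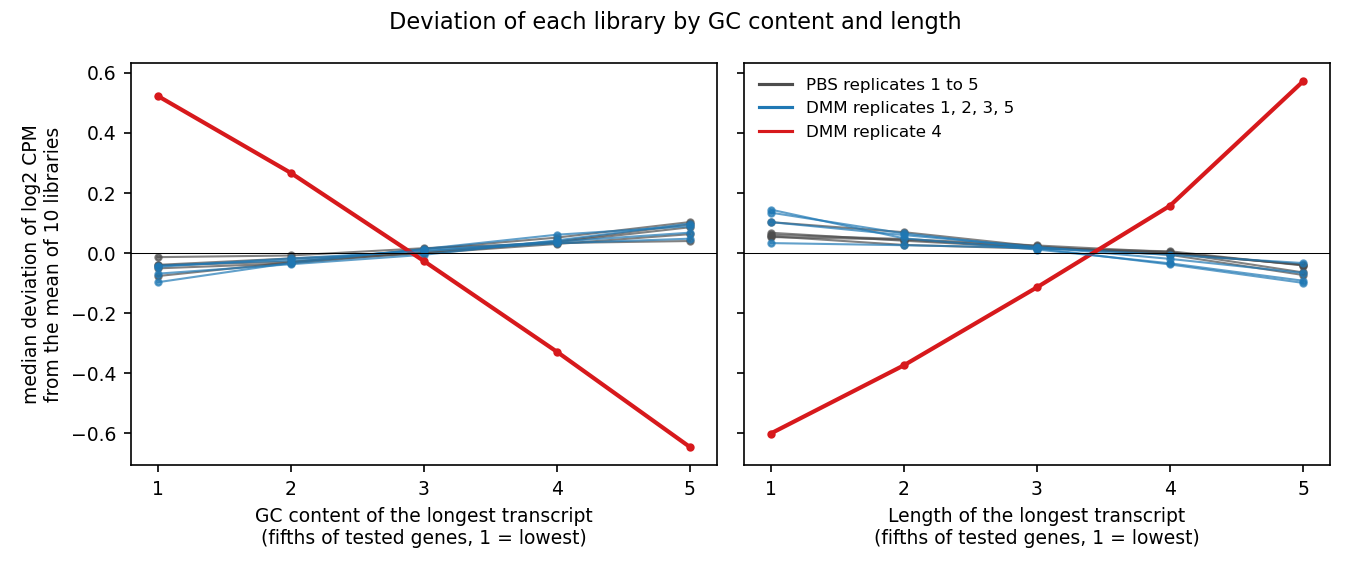
Median deviation of log2 CPM from the mean of 10 libraries, in 5 equal bins of tested genes by GC content (left) and length (right) of the longest transcript, 1 line per library. DMM replicate 4 runs from 0.52 to -0.65 with GC content and from -0.60 to 0.57 with length, whereas the other 9 libraries stay close to 0.

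The catalytic subunit gene Nox4 (ENSMUSG00000030562, mm10 chromosome 7, 87246096 to 87398710) was measured at 117, 111, 151, 74.9 and 95.1 CPM in PBS replicates 1 to 5 and at 81.1, 156, 172, 145 and 236 CPM in DMM replicates 1 to 5. DMM replicates 2, 3 and 5 were above every PBS library, DMM replicate 1 was near the bottom of the PBS range, and the groups overlapped. The mean was 110 ± 28.2 CPM (SD, n = 5) in PBS and 158 ± 55.5 CPM (SD, n = 5) in DMM kidneys. Over all 10 libraries the log2 fold change was 0.52 (standard error 0.26, adjusted p = 0.493 by edgeR's quasi-likelihood F test, Benjamini-Hochberg method), which did not pass the threshold, a fold change above 1.5 at an adjusted p below 0.05. The exact two-sided permutation test of this single gene gave p = 0.143 over 252 relabelings. It was 0.83 over the 8 libraries (standard error 0.20, adjusted p = 0.0382 by edgeR's quasi-likelihood F test), a 1.78-fold rise that passed. That call was lost in 7 of the 8 fits that leave out a further library, the exception being DMM replicate 4, without which the log2 fold change was 0.91 (adjusted p = 0.00506, edgeR). It was also lost after a correction of each library for GC content and length, an alternative chosen after seeing the data, at 0.65 (adjusted p = 0.164 from limma). That fit used limma in place of edgeR, and limma on the deposited FPKM without the correction left Nox4 short of the threshold as well.

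Cybb (ENSMUSG00000015340, chromosome X, 9435252 to 9487771), the catalytic subunit gene of the phagocyte oxidase, was measured at 171, 154, 142, 161 and 188 CPM in PBS replicates 1 to 5 and at 170, 97.2, 83.9, 180 and 76.5 CPM in DMM replicates 1 to 5. DMM replicates 2, 3 and 5 were below every PBS library, and DMM replicates 1 and 4 were inside the PBS range. The log2 fold change was -0.43 over all 10 libraries (standard error 0.24, adjusted p = 0.528 by edgeR's quasi-likelihood test; exact two-sided permutation p = 0.135) and -0.63 over the 8 (standard error 0.26, adjusted p = 0.198, edgeR), so Cybb passed in neither. The value over the 8 libraries rests on DMM replicate 4. Without that library it was -0.97 (adjusted p = 0.000314, edgeR), and after correcting for GC content and length it was -0.84 (adjusted p = 0.00424 from limma), both past the threshold.

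Cyba (ENSMUSG00000006519, chromosome 8, 122424776 to 122432930) encodes the membrane partner that NOX2 and NOX4 share. It was measured at 241, 247, 278, 221 and 275 CPM in PBS replicates 1 to 5 and at 247, 259, 285, 73.0 and 274 CPM in DMM replicates 1 to 5. DMM replicate 4 was far below all other libraries, and the other 4 DMM libraries were close to the PBS libraries. The log2 fold change was -0.15 over all 10 libraries (standard error 0.29, adjusted p = 0.846 by edgeR's quasi-likelihood test; exact two-sided permutation p = 0.825) and -0.14 over the 8 (standard error 0.36, adjusted p = 0.855, edgeR). Its sign turned without DMM replicate 4, to 0.078 over the remaining 9 libraries and 0.15 over the remaining 7, with an adjusted p of 0.614 and 0.206 by edgeR. No difference in Cyba passed the test in any of these sets. Cyba lies within Gm20388, a gene on the opposite strand with a total count of 0.

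Ncf1 (ENSMUSG00000015950, chromosome 5, 134220053 to 134229625) encodes the cytosolic organizer of the phagocyte enzyme. It was measured at 37.5, 38.8, 29.9, 43.1 and 40.9 CPM in PBS replicates 1 to 5 and at 35.6, 20.0, 16.0, 21.8 and 17.9 CPM in DMM replicates 1 to 5. DMM replicates 2 to 5 were below every PBS library, and DMM replicate 1 was inside the PBS range. Over all 10 libraries the log2 fold change was -0.77 (standard error 0.21, adjusted p = 0.378 by edgeR's quasi-likelihood test), with an exact two-sided permutation p of 0.0159. It was -1.08 over the 8 libraries (standard error 0.13, adjusted p = 0.00220, edgeR), with 40.1 ± 2.43 CPM (SD, n = 4) in PBS and 18.9 ± 2.52 CPM (SD, n = 4) in DMM kidneys, a 2.12-fold fall. Ncf1 was past the threshold in all 8 fits that leave out a further library. Over all 10 it passed only when DMM replicate 1 was left out, at -1.01 (adjusted p = 0.00341, edgeR). In bulk tissue, fewer cells that express a gene and less RNA per cell cannot be told apart. The genomic span of Ncf1, introns included, shares 4303 bases with that of Gtf2ird2 on the opposite strand. Gtf2ird2 has a total count of 2426 over the 10 libraries. How much of the shared stretch is exon was not examined. Because the sources do not state whether counting used the strand, reads of the pair cannot be told apart there.

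Ncf4 (ENSMUSG00000071715, chromosome 15, 78244801 to 78262580) encodes a cytosolic subunit that binds phosphoinositides. It was measured at 14.7, 14.9, 11.6, 15.9 and 18.6 CPM in PBS replicates 1 to 5 and at 14.5, 10.1, 7.88, 3.62 and 7.78 CPM in DMM replicates 1 to 5. DMM replicates 2 to 5 were below every PBS library, DMM replicate 4 lowest, and DMM replicate 1 was inside the PBS range. The log2 fold change was -0.79 over all 10 libraries (standard error 0.30, adjusted p = 0.398 by edgeR's quasi-likelihood F test; exact two-sided permutation p = 0.0159) and -1.12 over the 8 (standard error 0.28, adjusted p = 0.0446, edgeR). The latter call was lost in 6 of the 8 fits that leave out a further library, where the adjusted p by edgeR reached 0.138. It was kept without DMM replicate 4, at -0.90 (adjusted p = 0.00215, edgeR), without DMM replicate 2, at -1.32, and after correcting for GC content and length, at -1.02 (adjusted p = 0.00427 from limma).

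**Figure D2:**
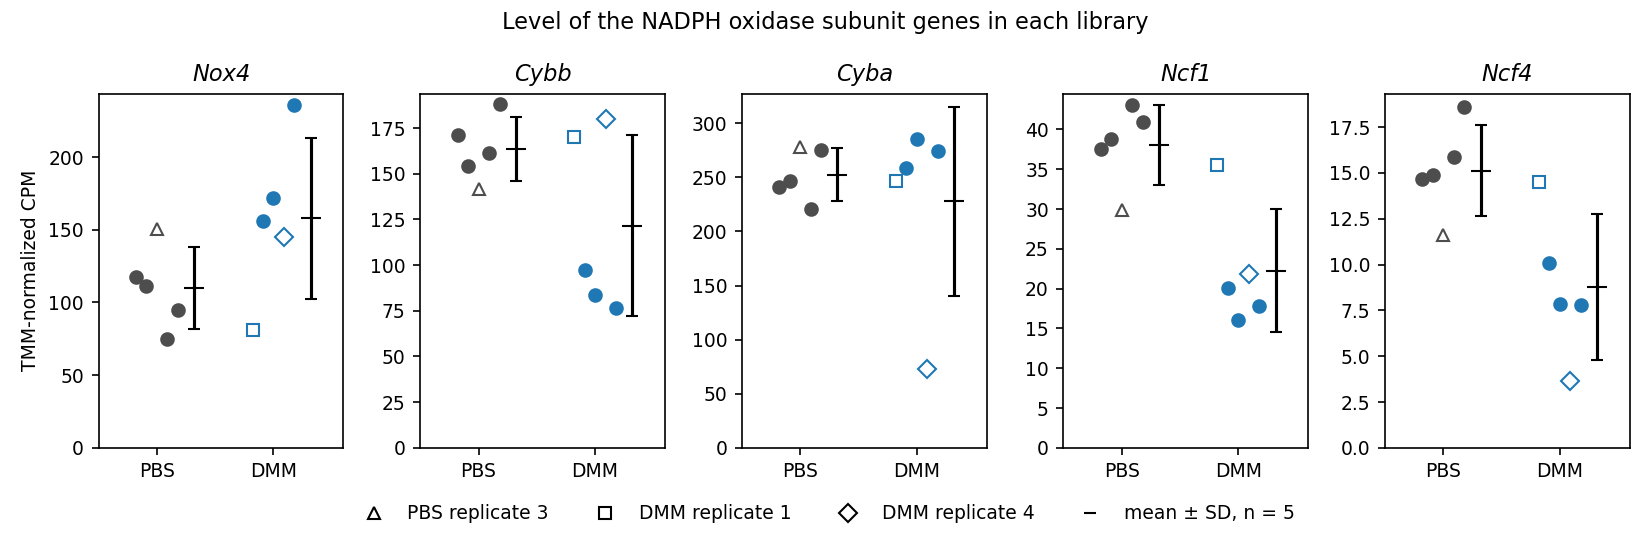
TMM-normalized CPM of each member in the 5 PBS and 5 DMM libraries, with mean ± SD (n = 5) and open symbols for the libraries that stood apart. DMM replicate 1 sits inside the PBS range in all 5 panels, and DMM replicate 4 sits apart from the other DMM libraries for Cyba, at 73.0 CPM.

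Over all 10 libraries 0 of the 5 members and 0 of 16505 tested genes were called higher in DMM kidneys by edgeR (0%), and 0 of the members and 0 genes were called lower (0%). DESeq2 called 12 genes higher and 33 lower and no member. With p below 0.05 before adjustment and the same fold threshold, 0 of the 5 members were higher, against 315 genes or 1.91% of all tested, and 2, Ncf1 and Ncf4, were lower, against 678 genes or 4.11%. The groups did not overlap for 0 members, against 0.794% of genes with DMM above and 1.16% with DMM below. Over the 8 libraries 1 member, Nox4, was called higher, against 452 of 16550 genes or 2.73%, and 2, Ncf1 and Ncf4, were called lower, against 590 genes or 3.56%. Unadjusted, 1 was higher against 6.45% of genes and 3 were lower against 7.24%. The groups did not overlap for Nox4 among the 9.45% of genes with DMM above, and for Ncf1 and Ncf4 among the 10.6% with DMM below. The members were chosen with earlier results of these data known, so these counts describe the list and test nothing about it.

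**Figure D3:**
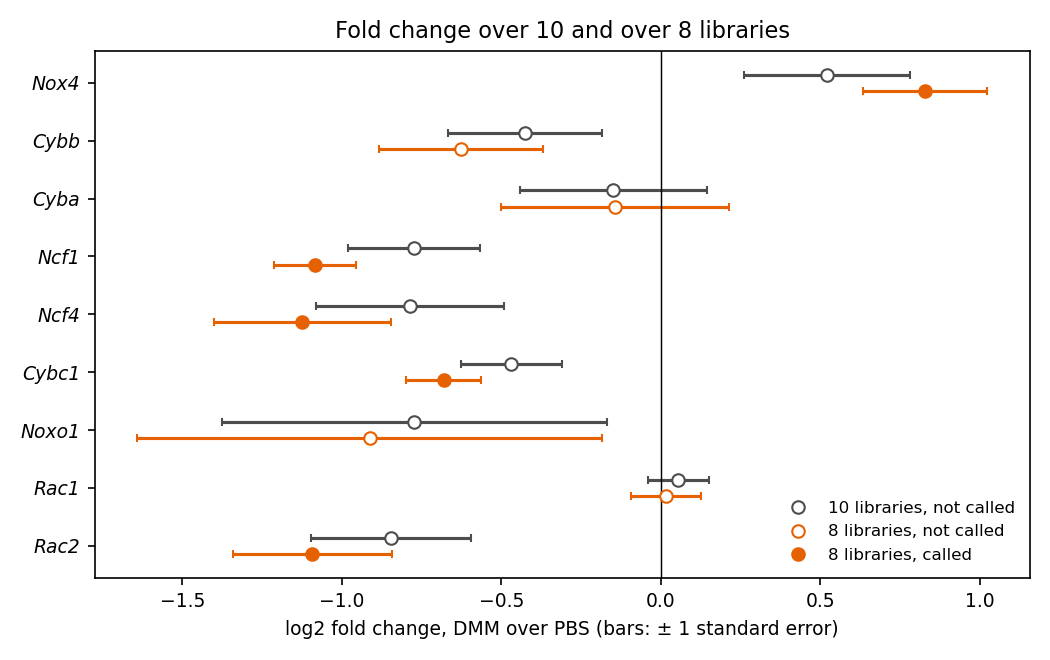
log2 fold change of DMM over PBS with ± 1 standard error for the members and 4 tested partner genes, over 10 and over 8 libraries; filled points had a fold change above 1.5 at an adjusted p below 0.05. Every point over 10 libraries is open, and over the 8 libraries Nox4 lies at 0.83 and Ncf1 at -1.08.

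Levels of different genes were compared as CPM per kb of the deposited gene length. Cyba was highest, at 243 ± 23.3 (SD, n = 5) in PBS kidneys, and was above Cybb, at 28.1 ± 3.02, in 5 of 5 PBS libraries. Nox4 followed at 13.0 ± 3.33, Ncf1 at 10.4 ± 1.37 and Ncf4 at 7.49 ± 1.24 CPM per kb. Cybb was above Nox4 in 5 of 5 PBS libraries, and Ncf1 was above Ncf4 in 5 of 5, whereas Nox4 exceeded Ncf1 in 4 of 5, so on this scale the last 2 did not differ beyond their spread. Per kb of the longest transcript, an alternative chosen after seeing the data, Nox4 was at 28.0 ± 7.19 in PBS kidneys, above Ncf1 in 5 of 5 PBS libraries and below Cybb, at 34.4 ± 3.69 (SD, n = 5), in 4 of 5. With that length Nox4, at 40.3 ± 14.1, was above Cybb, at 25.6 ± 10.4 (SD, n = 5), in 3 of 5 DMM libraries. In PBS kidneys the mean of Nox4 lay between those of Cybb and Ncf1 with either length. In DMM kidneys the order of the means of Nox4 and Cybb turned with the length, whereas the libraries with Nox4 above Cybb stayed the same. In DMM kidneys, per kb of the deposited length and over all 5 libraries, Cyba was at 219 ± 84.4, Cybb at 20.9 ± 8.53, Nox4 at 18.6 ± 6.55, Ncf1 at 6.08 ± 2.11 and Ncf4 at 4.34 ± 1.96 CPM per kb (SD, n = 5). Cybb was above Nox4 in only 2 of 5 DMM libraries, replicates 1 and 4, and without either of these the means changed places. Without DMM replicate 1, as in the 8 libraries, Nox4 was at 20.9 ± 4.79 and Cybb at 18.8 ± 8.23, and without DMM replicate 4 Nox4 was at 19.0 ± 7.50 and Cybb at 18.4 ± 7.41 CPM per kb (SD, n = 4), within the spread of each.

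The ratio of Nox4 to Cybb, the catalytic genes, in CPM per kb of the deposited length was 0.469, 0.495, 0.729, 0.318 and 0.347 in PBS replicates 1 to 5 and 0.327, 1.10, 1.40, 0.552 and 2.11 in DMM replicates 1 to 5. It was higher in DMM replicates 2, 3 and 5 than in every PBS library, an order that the choice of length cannot change. The side of 1 on which the ratio lay depended on the length only in PBS replicate 3, where it was 1.29 per kb of the longest transcript. In DMM replicate 4 it was 0.976 with that length, still below 1. The ratio of Ncf4 to Cybb was between 0.236 and 0.298 in 9 libraries of both groups and 0.0579 in DMM replicate 4. In those 9 libraries, 4 of them from DMM kidneys, the proportion of Ncf4 to Cybb thus varied little.

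Relations between the members were examined over the 10 libraries, in 10 pairs. Nox4 ran opposite to Ncf1, with Pearson's r = -0.87 and Spearman's rho = -0.90 (permutation p = 0.00108 and 0.00083, adjusted over the pairs 0.0108 and 0.00495). Without the libraries farthest from the median of Nox4, PBS replicate 4 and DMM replicate 5, r was -0.82, r of the deviations from the group means was -0.91, and r over the 8 libraries was -0.90. Ncf1 and Ncf4 ran together, with r = 0.77 and rho = 0.90 (permutation p = 0.00503 and 0.00099, adjusted 0.0163 and 0.00495), r = 0.79 without the farthest libraries, 0.51 for deviations from the group means and 0.76 over the 8 libraries. Without DMM replicate 4 it was 0.97. Cybb and Ncf4 gave r = 0.33 and rho = 0.47 (permutation p = 0.361 and 0.177, adjusted 0.452 and 0.222), r = 0.053 without the farthest libraries, -0.085 for deviations from the group means, r = 0.29 over the 8 libraries and r = 0.97 without DMM replicate 4. By r, 4 of the 10 pairs had an adjusted permutation p under 0.05, and by rho 3. Those by r included Nox4 with Cybb, at -0.78, and Cybb with Ncf1, at 0.82, with an adjusted permutation p of 0.0163 for each. By rho these pairs were at -0.71 and 0.66, with an adjusted permutation p of 0.0676 and 0.0874. These permutations take the libraries of both groups as exchangeable, so that a shared difference between groups enters r.

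The 5 genes whose log2 CPM followed each member most closely were ranked among 15436 genes by r over the 10 libraries. For Nox4 they were Dynll2 at 0.988, Slc16a9, Slc23a1, Aco1 and Slc5a12, the last at 0.973 and also on the list of proximal tubule markers. For Cybb they were Sh3kbp1 at 0.993, Lcp1, Nckap1l, Gm8995 and 9930111J21Rik2 at 0.982, and Gm8995, a pseudogene, may share reads with other genes. For Ncf1 they were Pik3ap1 at 0.994, Lpcat2, Sdc3, Coro2a and Phf11c at 0.985, and for Ncf4 they were Lpxn at 0.994, Coro1b, Hcls1, Rhog and Rgs14 at 0.990. For Cyba they were Uqcc3 at 0.995, Mrpl40, Mrpl11, Psenen and Fam241b at 0.992, with DMM replicate 4 as the library that stands apart for Cyba itself. By rho, Uqcc3 ranked 456 for Cyba, so the order rests in part on how far single libraries lie.

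Of 12 further genes of the oxidase family, 5 were tested and 7 were at or near 0, namely Nox1, Nox3, Duox1, Duox2, Duoxa1, Duoxa2 and Noxa1, with at most 11 counts in any library. Over all 10 libraries 0 were called, and 2 lower without DMM replicate 1 alone. Over the 8 libraries, 2 were called lower, Cybc1, which encodes a chaperone of the membrane heterodimer, at -0.68 (adjusted p = 0.0115 by edgeR's quasi-likelihood test) and the GTPase gene Rac2 at -1.09 (adjusted p = 0.0333, edgeR). Rac1, the widely expressed GTPase, was at 264 ± 14.7 CPM in PBS and 274 ± 23.0 CPM in DMM kidneys (SD, n = 5), and its log2 fold change of 0.055 turned to -0.034 when libraries were scaled by size without TMM. The count over the 8 libraries was 1 to 3 when a further library was left out. The median over the tested family genes was -0.47 over 10 libraries and -0.68 over 8, against 0.019 and 0.021 over all tested genes.

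Among 11 regulators of the oxidases, 0 were called over all 10 libraries, 2 lower without DMM replicate 1 alone, and 3 were called lower over the 8. These were the proton channel gene Hvcn1 at -0.81, the Rac exchange factor gene Vav1 at -0.73 and Nrros, a negative regulator of NOX2, at -0.74, with adjusted p of 0.0361, 0.0256 and 0.0297 by edgeR. The count was 0 when PBS replicate 1, 4 or 5 or DMM replicate 3 or 5 was left out of the 8, 1 without PBS replicate 2 and 3 without DMM replicate 2 or 4. Poldip2, whose product binds the NOX4 complex, was at 0.11 over the 8 libraries (adjusted p = 0.824, edgeR) and at 0.33 without DMM replicate 4 (adjusted p = 0.00572, edgeR), under the 1.5-fold threshold. The median of the list was -0.082 over 10 and -0.22 over 8 libraries. It was -0.28 when DMM replicate 4 was left out of the 10 and -0.49 when it was left out of the 8.

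Of 9 transcription factors known to act on these genes, 8 were tested, 0 were called over all 10 libraries, 4 lower without DMM replicate 1 alone, and 4 lower over the 8, where leaving out a further library gave 2 to 4. Among these, Spi1, which encodes the myeloid factor PU.1, was at -1.20 (adjusted p = 0.0216 by edgeR's quasi-likelihood F test), Irf8 at -0.65 (adjusted p = 0.0296, edgeR) and Irf1 at -1.39 (adjusted p = 0.0115, edgeR). Without DMM replicate 4 Irf8 was at -0.58, short of the 1.5-fold threshold. Spi1 was at 59.5, 52.6, 50.8, 64.2 and 68.4 CPM in PBS replicates 1 to 5 and at 52.4, 33.0, 27.3, 14.3 and 31.8 CPM in DMM replicates 1 to 5. DMM replicates 2 to 5 were below every PBS library, and DMM replicate 1 was inside the PBS range. The median of the list was -0.43 over 10 and -0.59 over 8 libraries, and -0.27 when DMM replicate 4 was left out of the 10.

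The 250 bases before the start of transcription were available from RefSeq (build GRCm38.p6) for 4 of the 5 members, Nox4, Cybb, Cyba and Ncf1. Both strands were searched for GAAANNGAA, a core of the interferon-stimulated response element, and for GAGGAA, a form of the PU.1 core. They were also searched for CCAAT, for the AP-1 element TGANTCA and for the NF-kappa B element GGGANNTTC. The interferon element was found in Cybb and Ncf1, whose sequences are shown for that reason with these matches in capitals, and it occurs in 7.13% of 32851 promoter windows of the same length. The Cybb window (chrX:9469325-9469574, minus strand) lies in an intron of the longer transcript Cybb-205 and holds 3 matches, and the Ncf1 window (chr5:134229626-134229875, minus strand) lies across no annotated transcript and holds 1, from 82 to 74 bases before the start.
Cybb: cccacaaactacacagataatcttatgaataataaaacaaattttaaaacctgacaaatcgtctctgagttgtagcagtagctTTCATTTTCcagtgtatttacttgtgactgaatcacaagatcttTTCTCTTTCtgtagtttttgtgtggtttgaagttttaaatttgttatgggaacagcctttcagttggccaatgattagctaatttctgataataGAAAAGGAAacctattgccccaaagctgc
Ncf1: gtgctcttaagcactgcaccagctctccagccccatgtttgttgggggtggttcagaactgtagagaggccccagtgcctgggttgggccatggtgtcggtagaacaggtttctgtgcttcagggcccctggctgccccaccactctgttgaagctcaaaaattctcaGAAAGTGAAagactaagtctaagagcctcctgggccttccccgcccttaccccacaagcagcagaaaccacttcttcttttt

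Cybb also held 1 CCAAT and 1 AP-1 match, which occur in 33.8% and 6.75% of windows, and Nox4 held 1 NF-kappa B match, which occurs in 3.23%. GAGGAA, the form of the PU.1 core that was searched, is found in 23.3% of windows and was in none of these 4. Other forms of a PU.1 site were not searched, so their absence is not shown. A match describes the letters in the window, and binding was not tested.

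Marker genes of other cells were examined beside the members. The 12 macrophage genes summed to 2478, 2574, 1985, 2333 and 2730 CPM in PBS replicates 1 to 5 and to 2377, 1644, 1339, 1069 and 1356 CPM in DMM replicates 1 to 5. Lyz2 was the most abundant per kb, and none of the 12 was at 0. Over the 8 libraries 4 of 12 were called lower and 0 higher, with a median of -0.96, and over all 10 libraries 0 were called, with a median of -0.66, and 3 lower without DMM replicate 1 alone. Without DMM replicate 4 the 4 became 8, whereas leaving out any other of the 8 libraries gave 2 or 3. The calls among all genes moved likewise, from 590 lower and 452 higher to 1281 and 1129 without DMM replicate 4, and to between 276 and 572 lower and between 131 and 377 higher without another. Relative to the mean log2 CPM of this list, the DMM minus PBS difference over the 8 libraries was 0.24 for Cybb, -0.13 for Ncf1 and -0.24 for Ncf4, where it was -0.71, -1.09 and -1.20 without reference to the list. Without DMM replicate 4 the differences relative to the list were -0.13, -0.31 and -0.045, so the sign for Cybb rests on that library, which was at 1.34 relative to the mean of the 5 PBS libraries, where DMM replicates 2, 3 and 5 were at -0.15, -0.080 and -0.22. Relative to Csf1r, the receptor gene that marks macrophages, the differences were -0.33, -0.71 and -0.82 over the 8 libraries and -0.56, -0.74 and -0.48 without DMM replicate 4. The 2 references thus gave opposite signs for Cybb over the 8 libraries and different sizes for Ncf1 and Ncf4. By flow cytometry of obstructed kidneys, a measure of cells and not of RNA, the paper reported macrophage and monocyte accumulation unchanged by DMM. The part of these cells in the members' values was not tested here.

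The 10 proximal tubule genes summed to 3506, 3485, 9161, 1271 and 2542 CPM in PBS replicates 1 to 5 and to 2632, 7221, 6013, 5191 and 8858 CPM in DMM replicates 1 to 5, with Kap most abundant per kb and none at 0. Among the PBS libraries replicate 3 was the highest and replicate 4 the lowest, as they were for Nox4. When log2 CPM was averaged over the genes instead, DMM replicate 5 was the highest of all 10 libraries, at 1.81 above the PBS mean, against 1.53 for PBS replicate 3. Of the 10, 4 were called higher and 0 lower over the 8 libraries, with a median of 1.66, and over all 10 libraries 0 were called, with a median of 0.94. Without DMM replicate 4 the 4 became 9, and leaving out any other of the 8 libraries gave 2 to 4, with 2 without PBS replicate 5. Relative to the mean log2 CPM of this list, the difference of Nox4 over the 8 libraries was -0.84, against 0.82 without reference to it. Its part in the result was not tested.

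Of the 8 neutrophil genes, 5 were tested and 0 were called in either set. PBS replicate 4 had a sum of 115 CPM and DMM replicate 4 of 102 CPM, against 18.2 to 34.6 CPM in the other 8 libraries, and S100a9 was the most abundant per kb. The defining genes Ly6g, Mpo and Elane were near 0, and Elane had 1 count in 1 library. Over the 8 libraries, 2 of 4 monocyte genes, 1 of 5 dendritic cell genes, 1 of 4 T cell genes and 2 of 6 fibroblast and myofibroblast genes were called lower, and 3 of 6 genes of the loop, distal tubule and collecting duct were called higher. Without DMM replicate 4 these counts were 3 of 4, 3 of 5, 3 of 4, 3 of 6 and 5 of 6. Leaving out another of the 8 libraries gave 2, 0 to 1, 0 to 1, 1 to 2 and 0 to 3. No B cell, NK cell, podocyte or endothelial gene was called in the 8 libraries, and 1 NK cell gene was called lower without DMM replicate 2. Over all 10 libraries no gene of any marker list was called, and no marker gene was at 0 in every library. Without DMM replicate 1 alone, 2 monocyte genes and 1 each of the dendritic, T cell and fibroblast lists were called lower. The part of these cells in the members' values was not tested.

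Of 13 genes that remove superoxide or peroxide, 3 were called higher over the 8 libraries, 0 lower, and 0 over all 10. The 3 became 8 without DMM replicate 4, 1 without PBS replicate 5 and 2 without any other of the 8. Those with the smallest p were mitochondrial superoxide dismutase Sod2 at 0.70 (adjusted p = 0.00820 by edgeR's quasi-likelihood test) and the mitochondrial peroxiredoxin Prdx3 at 0.66 (adjusted p = 0.0115, edgeR). Of 8 genes that supply NADPH, the substrate of the oxidases, 2 were called higher over the 8 libraries, Me1 at 0.82 (adjusted p = 0.0148, edgeR) and Idh1 at 0.65 (adjusted p = 0.0162, edgeR), and 0 over all 10. The 2 became 4 without DMM replicate 4, 1 without PBS replicate 4 and 0 without PBS replicate 1 or 5 or DMM replicate 5. Nnt has 2 identifiers in the table, 1 of them at 0 in every library, and its value is uncertain.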

How the data were processed

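Bulk RNA-seq of UUO kidneys gave 1 library per mouse. The authors aligned reads to mm10 (HISAT2 2.0.5 in the submitters' processing notes) and deposited unnormalized counts per gene, without stating how they were counted. The FPKM that the authors deposited divide these counts by gene length and an effective size for each library, which was 0.860 to 1.05 times its total count and close to the TMM-scaled size used here, so they are no independent scale. The deposited group means are a signal of scaled counts and served to find the library weights. The deposited columns of fold change, log2 fold change, p-value and adjusted p-value hold the authors' DESeq2 comparison and were not used.

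Genes kept by filterByExpr were scaled by TMM and tested with edgeR 4.0.16 (quasi-likelihood, R 4.3.3), adjusted over all tested genes, after tests on simulated data. DESeq2 1.42.0 and limma 3.58.1 served as alternatives. Named genes were the members, their 5 closest genes by r, the oxidase lists, and set genes of the other lists. Values of 2 listed genes are not reported here, though counts and medians include them. The members and lists were chosen with earlier results of these data known. p-values measure the spread between mice, and reads are not independent molecules.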

Additional observations from a re-analysis of the deposited data

Results flagged for a closer look

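In 10 tested genes of the oxidase and its family, 20 groups of 5 libraries were examined for a library far from the others, and 3 held such a library, where chance gives about 1 in 20. Cyba was at 73.0 CPM in DMM replicate 4, with a gap to the next library of 0.819 of the range of the group. Noxo1 was at 0 CPM in DMM replicate 4, with a gap of 0.735 of the range, and its highest count in any library was 53. Rac2 was at 76.8 CPM in PBS replicate 5, above the other PBS libraries by 0.734 of the range.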

How the results depend on the processing

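Of 100 log2 fold changes of members refitted for the 10 libraries, 99 kept their sign and 4 passed the threshold that the original value did not. Of 85 for the 8 libraries, 84 kept their sign, 22 fell short of the threshold and 2 came to pass it. The exception in sign was Cyba without DMM replicate 4, at 0.078 (10 libraries) and 0.15 (8 libraries).

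For all 10 libraries, 0 genes were called higher and 0 lower by edgeR, 12 and 33 by DESeq2, and 315 and 678 at an unadjusted p under 0.05. Over the 8 libraries 452 and 590 were called, with Nox4 at 0.83, Ncf1 at -1.08 and Ncf4 at -1.12. Leaving out 1 of the 10 libraries gave 0 to 50 and 0 to 436, the highest without DMM replicate 1, and -1.01 to -0.68 for Ncf1, -0.24 to 0.078 for Cyba, -0.61 to -0.30 for Cybb, -1.04 to -0.59 for Ncf4 and 0.33 to 0.69 for Nox4.

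For the 8 libraries, DESeq2 called 749 higher and 910 lower. Library size alone gave 276 and 700, with Nox4 at 0.72 and Ncf4 at -1.21, both short of the threshold. An adjusted p under 0.01 left 73 and 219 and neither Nox4 (0.83) nor Ncf4 (-1.12). limma on log2(FPKM + 0.1) gave Nox4 0.82 and Ncf4 -1.18, and on log2(FPKM + 1) Nox4 0.77, all short of the threshold. Correcting for GC content and length, tested with limma, was an alternative chosen after seeing the data. It put Nox4 at 0.65, short of the threshold, and Cybb at -0.84, past it. It kept the calls of Ncf1 at -0.98 and Ncf4 at -1.02. Leaving out 1 of the 8 gave 131 to 1129 and 276 to 1281, lowest without PBS replicate 5 and highest without DMM replicate 4, with 0.66 to 0.91 for Nox4, -0.97 to -0.49 for Cybb, -0.29 to 0.15 for Cyba, -1.16 to -1.01 for Ncf1 and -1.32 to -0.90 for Ncf4. The cause of these differences was not tested.

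Replicate numbers are shared between the groups, but same-numbered libraries deviated together only in part, with r of -0.06, 0.079, 0.34, 0.12 and -0.22, and 1 of 5 correlated best with its own number. With the replicate number as a block, 0 genes were called in either direction in both sets. Without PBS replicate 3 and DMM replicate 1, replicate numbers 1 and 3 are each in only 1 group. The block fit of the 8 libraries thus compares the groups only within replicate numbers 2, 4 and 5, where Nox4, Ncf1 and Ncf4 were at 0.92, -1.05 and -1.30. So few libraries leave little to measure the spread, and the absence of calls in that set decides nothing.

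Of the 5 genes most like each member, the 8 libraries kept 1 for Nox4, 4 for Cybb, 2 for Cyba, 2 for Ncf1 and 4 for Ncf4, and Spearman's rho, with a gene counted as kept where fewer than 5 genes had a higher rho, so that ties are kept, left 2 for Nox4, 0 for Cybb, 1 for Cyba, 2 for Ncf1 and 2 for Ncf4. Deposited FPKM kept every level within 1 SD, which follows from using the same counts and gene lengths and close to the same library sizes.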
